A study of Mus musculus with 18 samples.

Results

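Cd74, H2-Aa, H2-Eb1 and C1qb, genes of class II antigen presentation and of the complement component C1q, were read in mouse ovaries through every probe set that the platform annotation gives to them. They are 4 of the 6137 genes named on the chips, with 11 of the 13179 probe sets of both chip types: 1 for Cd74, 5 for H2-Aa, 2 for H2-Eb1 and 3 for C1qb. All 11 stood above the detection limit on all 9 arrays of their chip type, with 4 of them belonging to chip A and 7 to chip B.

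The mice were CF-1 animals or CF-1xC57BL/6 F1 hybrids, either wild type or carrying the LHCTP transgene, which makes them hypersecrete luteinizing hormone (LH). At 2 months the labels describe the transgenic ovaries of both strains as cystic. At 5 months the transgenic CF-1 ovary is labelled a granulosa cell tumour, the transgenic hybrid ovary a luteoma, and a further transgenic CF-1 ovary, from an animal given human chorionic gonadotropin (hCG), also a luteoma. With the wild types of each strain at 2 and 5 months this makes 9 conditions, each with 1 array of chip A and 1 of chip B, 18 arrays in all. The labels name no replicate animals, no pooling, no promoter of the transgene and no dose or duration of hCG. For the tumour's chip B array the description gives 2 months where the title and the source give 5 months, and the latter were followed.

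MHC class II molecules are pairs of an alpha and a beta chain that show peptides from outside the cell to CD4+ T cells. H2-Aa encodes the alpha chain of the I-A molecule and H2-Eb1 the beta chain of the I-E molecule, while Cd74 encodes the invariant chain, which fills the binding groove of new class II molecules until they reach the compartment where peptides are loaded. Dendritic cells, B cells and macrophages are the main class II cells. C1qb encodes the B chain of C1q, the recognition unit of the classical complement pathway, which tissue macrophages make in large part. The ovary holds resident macrophages around follicles and in the corpus luteum.

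Class II promoters are known for a conserved module of X and Y boxes, bound by the RFX complex, CREB family factors and NF-Y, on which the co-activator Ciita acts. The 120 bases before the RefSeq start (GRCm38.p6) of H2-Aa and H2-Eb1, whose probe sets are compared with each other here, and of C1qb, which is no class II gene, are given 5′ to 3′ on the gene's strand. Capitals mark matches to the letters searched on both strands: GNNACNGAT (core of the X box), TGACGTCA and TGATGTCA (the adjoining X2 box), CTGATTGG (Y box) and ATTGG (inverted CCAAT, which lies inside the Y box letters).
H2-Aa, chr17:34287824-34287943, minus strand: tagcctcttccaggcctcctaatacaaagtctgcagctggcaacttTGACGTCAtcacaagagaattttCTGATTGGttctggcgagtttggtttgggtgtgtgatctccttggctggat
H2-Eb1, chr17:34305747-34305866, plus strand: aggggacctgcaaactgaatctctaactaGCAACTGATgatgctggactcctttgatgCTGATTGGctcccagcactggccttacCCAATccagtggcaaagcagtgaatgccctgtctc
C1qb, chr4:136886201-136886320, minus strand: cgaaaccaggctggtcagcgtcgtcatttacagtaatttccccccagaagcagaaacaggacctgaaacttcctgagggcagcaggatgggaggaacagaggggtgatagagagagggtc
Both class II windows hold CTGATTGG, from base -51 to -44 before the start of H2-Aa and from -62 to -55 before that of H2-Eb1. H2-Eb1 has GNNACNGAT from -91 to -83, and H2-Aa has TGACGTCA from -74 to -67. Of 32851 RefSeq windows of 250 bases before a start, 3.83% hold CTGATTGG, 6.53% GNNACNGAT, 1.55% TGACGTCA, 2.93% TGATGTCA and 33.8% ATTGG. None of these letters was found in the C1qb window. A match describes these letters and is not a test of binding.

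Cd74, read by X00496_s_at on chip B, was lower in every transgenic ovary than in the wild type of its strain and age, and lowest in the tumour. Levels are intensities scaled within a chip type and, apart from sums over gene lists, are compared only within a probe set. Those sums add probe sets of both chip types, so bright sets weigh most in them. The 4 wild-type ovaries read 7022 units (CF-1, 2 months), 12507 units (CF-1, 5 months), 6693 units (hybrid, 2 months) and 5895 units (hybrid, 5 months). Their transgenic partners read 2471 units (CF-1 cystic), 860 units (tumour), 2743 units (hybrid cystic) and 4640 units (hybrid luteoma), so that the groups did not overlap. The hCG-treated CF-1 luteoma read 7023 units, inside the wild-type range. The wild-type mean was 8029 ± 3022 units and that of untreated transgenic ovaries 2678 ± 1550 units (SD, n = 4 conditions each).

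H2-Aa followed Cd74 on its brightest probe set, AF027865_2_s_at on chip A. It read 4214 and 9850 units in the CF-1 wild types of 2 and 5 months, and 6136 and 6088 units in the hybrid ones. The transgenic ovaries read 1386 units (CF-1 cystic), 422 units (tumour), 2114 units (hybrid cystic) and 3947 units (hybrid luteoma), all under the lowest wild type. The hCG-treated ovary read 5052 units. K01925_f_at also kept the groups apart, with 2597, 6484, 1681 and 1540 units in the wild types (CF-1 at 2 and 5 months, hybrid at 2 and 5 months) against 1137, 815, 831 and 1024 units in their partners, and 1981 units after hCG.

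Some chip B probe sets are called by their GenBank entry, as in the plots. The other 3 H2-Aa probe sets gave the same order at the extremes but overlapped between genotypes through the hybrid luteoma. In the order used for K01925_f_at, k01923_f_at read 2275, 8508, 2554 and 2950 units in wild types and 1528, 1035, 1958 and 3424 units in transgenic ovaries. On chip B, the V00832 set read 2471, 6416, 2756 and 2960 units against 1194, 826, 1099 and 2591 units. The chip B set of K01923 read 2111, 5462, 2582 and 2665 units against 1200, 635, 1608 and 2412 units. All 5 probe sets were lowest in the tumour and highest in the 5-month CF-1 wild type, and the luteoma of the hybrid was the highest untreated transgenic ovary on 4 of them.

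H2-Eb1 gave 2 different patterns. On x00958_s_at the wild types read 1234, 3887, 2054 and 2281 units (CF-1 at 2 and 5 months, hybrid at 2 and 5 months) and the transgenic ovaries 1119, 815, 1635 and 2286 units, with the tumour again lowest and the CF-1 wild type of 5 months highest. On the X00702 set the wild types read 1429, 1789, 1239 and 1406 units and the transgenic ovaries 1774, 2012, 1906 and 3168 units, each higher than its partner. The hCG-treated ovary read 2126 units on the first and 1403 units on the second. Levels of the 2 probe sets had a Pearson correlation of -0.03 over the 9 conditions, so a direction for H2-Eb1 cannot be given from these arrays. The suffixes _f and _s mark probe sets whose probes are shared between similar sequences, and class II genes are polymorphic between mouse strains. All of the H2-Aa sets and x00958_s_at carry such a suffix, so which class II transcript or allele they read is uncertain. The Cd74 set and all C1qb sets carry one too. Of the sets read here only the X00702 set, higher in each transgenic ovary than in its partner, carries none.

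C1qb did not share the class II pattern. On m22531_f_at the wild types read 2034, 5409, 2482 and 3031 units (CF-1 at 2 and 5 months, hybrid at 2 and 5 months), the transgenic ovaries 2616, 3442, 2961 and 4626 units, and the hCG-treated ovary 3142 units. The chip B set of M22531, the same GenBank entry, read 1883, 4375, 2126 and 2734 units against 2192, 2563, 2210 and 4987 units, and 2410 units after hCG. X16874_f_at read 1003, 3858, 1003 and 1223 units against 953, 2261, 849 and 2570 units, and 1758 units after hCG. The genotypes overlapped on all 3 probe sets, and the hybrid luteoma and the CF-1 wild type at 5 months were the highest pair of arrays on each.

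**Figure D1:**
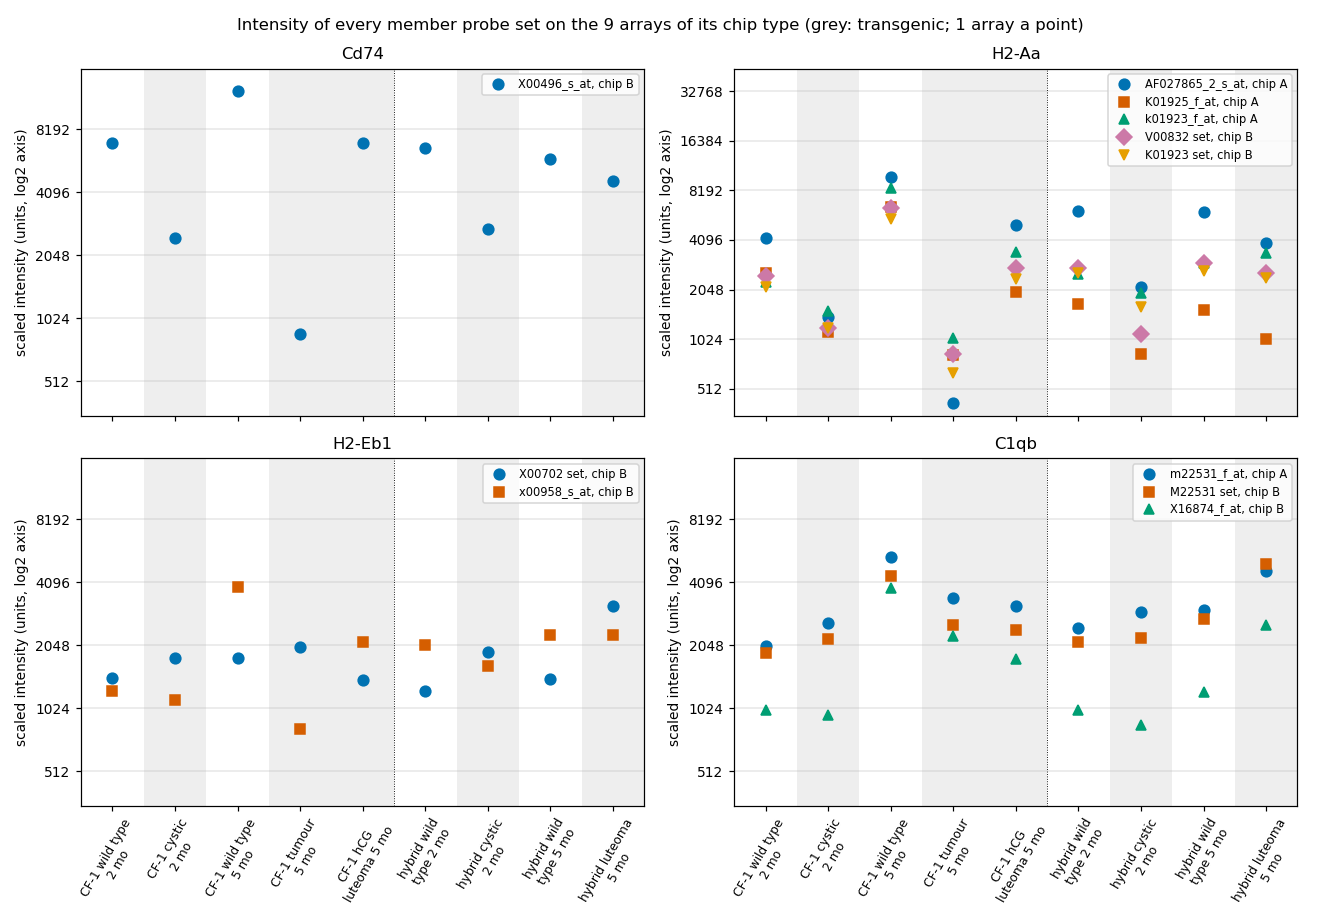
Scaled intensity (units, log2 axis) of every Cd74, H2-Aa, H2-Eb1 and C1qb probe set in the 9 conditions, 1 array a point, with transgenic conditions on grey and the strains parted by a dotted line. Cd74 and H2-Aa are lowest in the tumour (860 and 422 units on their brightest probe sets), while C1qb is lowest at 2 months.

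The first comparison asked whether LH hypersecretion goes with a difference whatever the strain and age. Cd74 and H2-Aa were lower in transgenic ovaries and C1qb was not, but no probe set passed the test. Genotype, strain and age were fitted together with limma on the 8 untreated arrays of each chip type, and p-values were adjusted over all 6408 tested probe sets by the Benjamini-Hochberg method. The log2 difference, transgenic minus wild type, was -1.75 for Cd74 (SE 0.50, limma adjusted p = 0.347), and -2.08 for H2-Aa AF027865_2_s_at (SE 0.58, limma adjusted p = 0.339). The other H2-Aa sets had log2 differences of -1.45, -1.38, -1.19 and -0.95. With H2-Eb1 the values were -0.68 on x00958_s_at and 0.57 on the X00702 set (limma adjusted p = 0.603 and 0.459). The 3 C1qb sets had 0.14, 0.09 and -0.003, and the 95% interval on m22531_f_at ran from -0.41 to 0.70.

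In this fit limma called 0 of 6408 probe sets at an adjusted p under 0.05, which is 0%, and 642 at an unadjusted p under 0.05, with 6 of the 11. The latter were 5.34% of all probe sets on the lower side, with 5 of the 11 read here (Cd74 and all H2-Aa sets but k01923_f_at), and 4.68% on the higher side, with 1 of the 11 (the X00702 set of H2-Eb1). The lowest wild type stood above the highest untreated transgenic ovary in 2.37% of all probe sets and in 3 of the 11, namely Cd74 and 2 H2-Aa sets. Some 10.1% of all probe sets were lower in all 4 pairs of transgenic and wild-type ovaries, and so were 5 of the 11. Higher in all 4 pairs were 9.61% of all and 1 of the 11, the X00702 set of H2-Eb1. Since each condition has 1 array, the p-values measure how arrays scatter around the fitted factors and hold no estimate of variation among animals of a group. Without the tumour the log2 difference was -1.14 for Cd74 and -1.37 for H2-Aa AF027865_2_s_at (limma adjusted p = 0.251 and 0.190). Leaving out the tumour or the CF-1 wild type of 5 months gave -1.10 and -1.02 on K01925_f_at (limma adjusted p = 0.325 and 0.255). On the V00832 set these were -0.96 and -1.02 (limma adjusted p = 0.349 and 0.410). They were -0.44 and -0.40 on k01923_f_at, and -0.70 and -0.72 on the chip B set of K01923 (limma unadjusted p = 0.0545 and 0.0674). For H2-Eb1 they were -0.32 and -0.25 on x00958_s_at, and 0.69 and 0.64 on the X00702 set. On unscaled values 2 H2-Aa sets passed, AF027865_2_s_at at -2.30 and K01925_f_at at -1.67 (limma adjusted p = 0.000476 and 0.0140). Limma called 33 of the 6408 probe sets there, and the median genotype difference of all probe sets was -0.16, against 0.0001 on scaled values.

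In whole ovaries, fewer cells of a type and less RNA per cell cannot be told apart. Macrophage markers were measured through 18 of a list of 24, of which 12 were tested, 9 with a higher and 3 with a lower mean in transgenic ovaries, at a median log2 difference of 0.04. Their summed level, over probe sets of both chips, ran from 25152 to 64611 units in wild-type and from 27590 to 52014 units in untreated transgenic ovaries. Lyz2 alone made up 8991 to 33433 and 15223 to 28289 units of it, and without Lyz2 the sum ran from 13555 to 31178 and from 12367 to 23725 units. Adgre1 and Csf1r, which define macrophages, stood under the detection limit on 9 and 8 of 9 arrays. Of the general leukocyte genes 9 were tested, 6 higher and 3 lower, with a median of 0.07. Their sums were 5914 to 11256 units in wild-type against 6248 to 9290 units in transgenic ovaries. Lowest of them was Lsp1 at -1.12 (limma unadjusted p = 0.000405, adjusted p = 0.103), detected on 2 of 9 arrays. Of the macrophage genes Lgals3 on its brightest set was lower, at -0.77 (limma unadjusted p = 0.0350). No other gene of these 2 lists had an unadjusted p under 0.05 for genotype. Of 8 dendritic cell markers on the chips, Fscn1 and Zbtb46 were detected on all 9 arrays and 6 on none, Flt3 among them. Of 9 B cell markers, Ms4a1, Blk and Ighm were detected on all 9 arrays on their brightest probe sets, Cd79b on 5, Cr2 on 1, and 4 on none, Cd79a and Pax5 among them. Of 10 T cell markers, Cd3e was detected on 8 arrays, Cd28 on 1 and 8 on none. The B cell sum ran from 5311 to 6277 units in wild-type and from 3829 to 6312 units in untreated transgenic ovaries, lowest in the tumour. Ms4a1 on aa218177_s_at alone made up 2479 to 4274 and 1638 to 3921 units of it. Another probe set of Ms4a1 (M62541_s_at) and another of Blk (M30903_s_at) were detected on none of the 9 arrays. The part of these cells in the class II values was not tested.

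**Figure D2:**
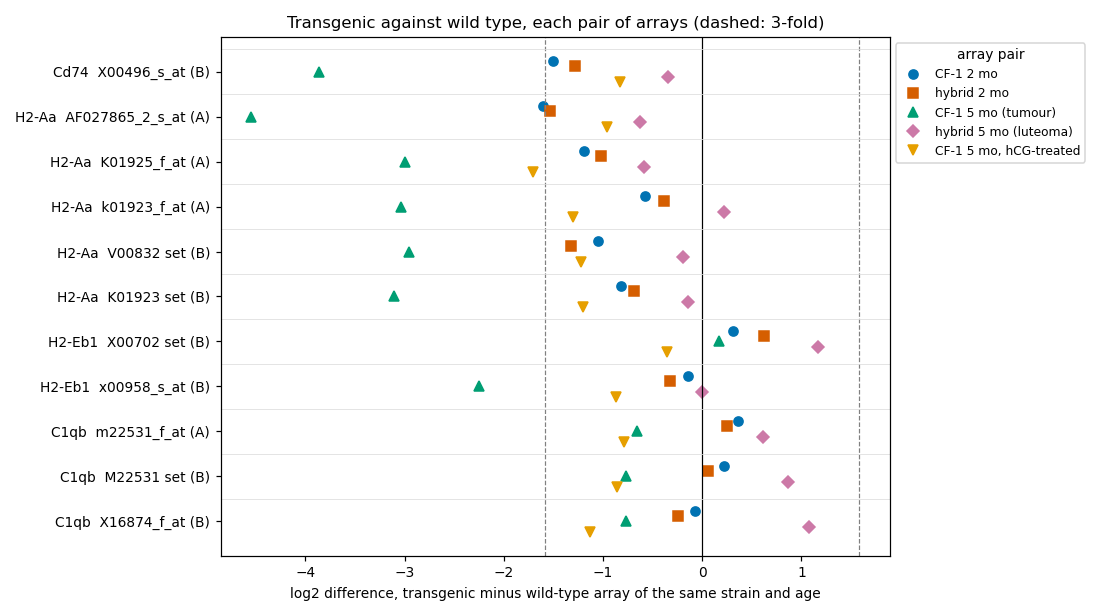
The log2 difference (horizontal axis) of every probe set between a transgenic ovary and the wild type of its strain and age, 1 point a pair of arrays, with the hCG-treated ovary set against the CF-1 wild type of 5 months. Dashed lines mark a 3-fold difference, which 7 of the 11 probe sets passed in the tumour and none in either hybrid pair.

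Pair by pair, Cd74 and H2-Aa differed from wild type by different amounts in the cystic ovaries, the tumour and the luteomas. These pairs have 1 array on each side and no test, and a probe set was counted when the arrays differed at least 3-fold. In the cystic ovaries of 2 months Cd74 had a log2 difference of -1.51 in CF-1 and -1.29 in the hybrid, and the H2-Aa sets ran from -1.60 to -0.57 and from -1.54 to -0.38. Both cystic ovaries were lower on all 6 of these probe sets. At least 3-fold lower in the CF-1 pair were 0.531% of all probe sets and 1 of the 11 (H2-Aa AF027865_2_s_at). In the hybrid pair it was 1.11% of all and 0 of the 11.

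The tumour gave the widest gap. Against the CF-1 wild type of 5 months Cd74 was 14.5-fold lower, H2-Aa between 7.76-fold and 23.3-fold lower on its 5 probe sets, and H2-Eb1 4.77-fold lower on x00958_s_at. At least 3-fold lower were 7 of the 11, against 2.95% of all probe sets. The C1qb sets were 1.57-fold to 1.71-fold lower there. The wild type of this pair was the highest of the 9 arrays on 9 of the 11 probe sets, against 9.18% of all. The tumour was the lowest of the 9 arrays on 7 of the 11, as it was on 1279 of the 6408 in all.

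At 5 months the luteomas stood closer to wild type than the tumour did on Cd74 and H2-Aa. Each luteoma pair sets an array with the control profile described below against an array without it, and the tumour pair does not. The part of the profile in these pairs was not tested. In the hybrid luteoma Cd74 had a log2 difference of -0.35 from its wild type, H2-Aa from -0.63 to 0.22, and the 3 C1qb sets from 0.61 to 1.07. None of the 11 passed 3-fold in either direction, where 1.70% of all probe sets were lower and 2.14% higher. The hCG-treated CF-1 luteoma, set against the same wild type as the tumour, had a log2 difference of -0.83 for Cd74 and of -1.71 to -0.96 for H2-Aa. At least 3-fold lower was 1 of the 11 (H2-Aa K01925_f_at), against 1.75% of all. All 11 probe sets were lower than in that wild type, as were 3192 of the 6408 in all. That wild type was the highest of the 9 arrays on 9 of the 11, against 9.18% of all.

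Between transgenic ovaries of 5 months, both luteomas were above the tumour on Cd74, on all 5 H2-Aa sets and on H2-Eb1 x00958_s_at. Cd74 was 8.17-fold higher in the hCG-treated luteoma and 5.40-fold higher in the hybrid luteoma than in the tumour, and H2-Aa AF027865_2_s_at was 12.0-fold and 9.36-fold higher. The other 4 H2-Aa sets were less far apart, 2.43-fold to 3.75-fold higher in the hCG-treated and 1.26-fold to 3.80-fold higher in the hybrid luteoma. H2-Eb1 was 2.61-fold and 2.80-fold higher on x00958_s_at, while on the X00702 set it was 1.43-fold lower in the hCG-treated and 1.57-fold higher in the hybrid luteoma. At least 3-fold higher were 5 of the 11 in each comparison, against 5.20% of all probe sets with hCG and 3.32% with the hybrid. C1qb differed by less than 2-fold in both, with log2 differences of -0.36 to -0.09 after hCG and of 0.18 to 0.96 in the hybrid. These 2 comparisons share the tumour array. The luteomas themselves differed by less than 3-fold on all 11 probe sets, with 0.60 for Cd74 and -0.02 to 0.95 for H2-Aa as log2 differences, hCG-treated minus hybrid. At least 3-fold apart in that comparison were 2.42% of all probe sets on the higher and 1.89% on the lower side.

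Whether the transgenic difference itself differs between strains was tested by an interaction term. The interaction of genotype with strain was positive on all 11 probe sets, as on 2975 of the 6408, at a log2 value of 1.87 for Cd74 (limma unadjusted p = 0.0436, adjusted p = 0.854) and 1.99 for H2-Aa AF027865_2_s_at (limma adjusted p = 0.854). Limma called 0 of 6408 probe sets for it, and 348, or 5.43%, at an unadjusted p under 0.05. On the positive side these were 2.65% of all and 1 of the 11. For genotype with age no probe set read here reached an unadjusted p under 0.05, against 2.76% of all, and limma called 0. The value was -0.71 for Cd74 and -1.01 for H2-Aa AF027865_2_s_at. Neither interaction passed the test on any of the 11, and without the tumour that with strain was 0.87 for Cd74 and 0.78 for H2-Aa.

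For strain alone 0 of the 11 reached an unadjusted p under 0.05 by limma, against 7.88% of all probe sets. After adjustment limma called 2 of 6408, or 0.0312%, and none of the 11. The H2-Aa sets did not share a sign, with log2 differences, hybrid minus CF-1, of 0.92 on AF027865_2_s_at and -0.71 on K01925_f_at (limma adjusted p = 0.728 and 0.687).

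C1qb differed more with age than with genotype or strain in size, though not past the threshold. All 3 of its probe sets had higher values at 5 than at 2 months, by 0.68, 0.74 and 1.27 on the log2 scale (SE 0.24, 0.26 and 0.31), with limma adjusted p = 0.204, 0.199 and 0.142. None passed the test, in which limma called 1 probe set of 6408, or 0.0156%, and gave 19.5% of all and 3 of the 11 an unadjusted p under 0.05. Higher with age at that level were 9.63% of all probe sets and 3 of the 11, those of C1qb. Cd74 had an age difference of -0.03. In wild types the C1qb log2 difference was 1.22 to 1.94 in CF-1 but 0.29 to 0.36 in the hybrid. At least 3-fold higher in the CF-1 pair were 1.87% of all probe sets and 3 of the 11, 1 each of C1qb (X16874_f_at), H2-Aa (k01923_f_at) and H2-Eb1 (x00958_s_at). Without the hybrid wild type of 5 months X16874_f_at passed for age, at 1.62 (limma adjusted p = 0.0313). In that fit limma called 254 of the 6408 probe sets for age. All untreated arrays of 5 months left in it share the control profile described below, so age and profile cannot be told apart there.

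The other C1q chains, read by 1 probe set each on chip B, were highest in the CF-1 wild type of 5 months, as was C1qb on m22531_f_at. C1qa read 1417, 4466, 1184 and 1415 units in the wild types and 1314, 2986, 1703 and 2549 units in the transgenic ovaries (CF-1 at 2 and 5 months, hybrid at 2 and 5 months), and C1qc 1670, 5878, 2348 and 2582 units against 2286, 3593, 2567 and 3837 units. Their log2 differences with age were 0.92 and 0.80 (limma unadjusted p = 0.018 and 0.023), and with genotype 0.17 and 0.11. Among macrophage genes, each read on its brightest set, 10 of 12 were higher at 5 months. At an unadjusted p under 0.05 were 5 of them: Lyz2 (lysozyme), Cd68 (a lysosomal protein), Laptm5, Mpeg1 (a pore-forming protein) and Lgals3 (galectin 3). The Lgals3 sets disagreed, with 0.95 on the brightest and -0.85 on j03723_rc_g_at (limma unadjusted p = 0.0149 and 0.0105). The latter reached the detection limit on 2 of 9 arrays.

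A technical sign moved with these age values. The CF-1 wild type, the tumour and the hybrid luteoma of 5 months shared a profile of 15 control probe sets per chip, with correlations among them from 0.957 to 0.992 (chip A) and from 0.957 to 0.985 (chip B). Correlations with the other 6 arrays were at most 0.901 (chip A) and 0.806 (chip B). These 3 arrays were the 3 highest on 2 of the 11 probe sets, both of C1qb, against 8.35% of all. With a term for this profile the C1qb age differences were 0.17, 0.18 and 0.22 (limma adjusted p = 0.973, 0.973 and 0.959), and they then rest on the hybrid wild type, the single untreated array of 5 months without it. The hCG-treated ovary, also of 5 months and without the profile, read 1758 units on X16874_f_at, against 849 to 1003 units in the 4 ovaries of 2 months. On the other C1qb sets it stood close to that range, with 3142 against at most 2961 units on m22531_f_at and 2410 against at most 2210 units on the chip B set of M22531. Profile, age and pathology cannot be told apart in these arrays. The hCG-treated ovary also differs in profile from the tumour and from the hybrid luteoma, while the tumour and the hybrid luteoma share it.

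**Figure D3:**
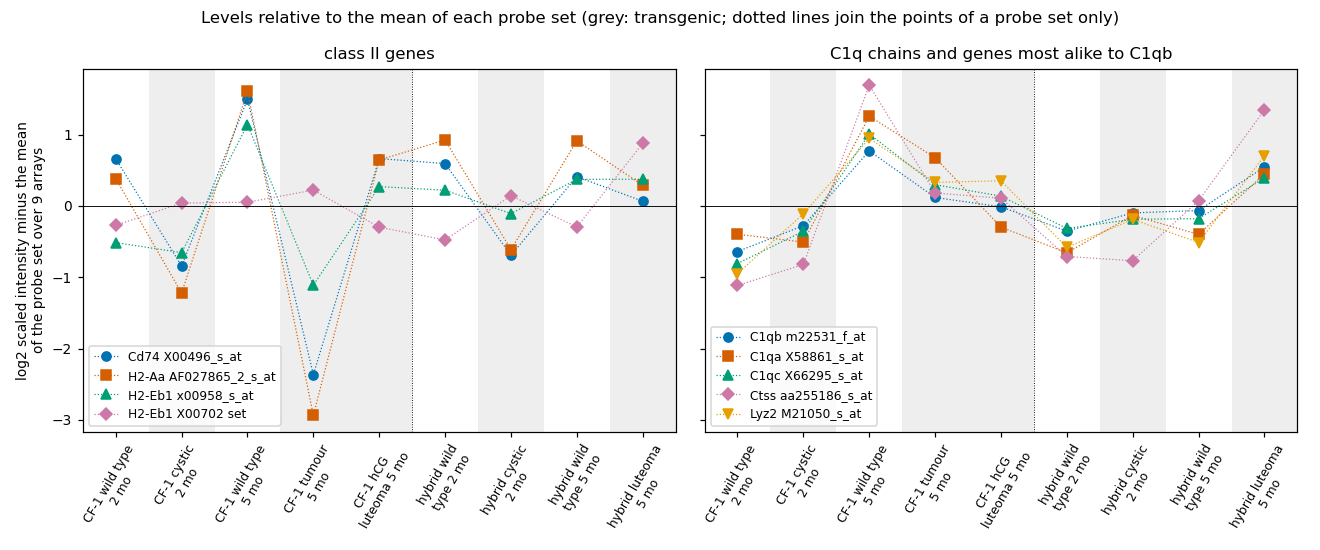
Level of selected probe sets in each condition as log2 intensity minus the probe set's mean over 9 arrays, class II genes on the left and C1q chains with Ctss and Lyz2 on the right; lines join the points of a probe set only. Cd74 and H2-Aa are lowest in the tumour, the X00702 set of H2-Eb1 is not, and C1qa, C1qc and C1qb on m22531_f_at are highest in the CF-1 wild type of 5 months.

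Probe sets of a gene agreed for H2-Aa and C1qb. Over the 9 conditions the 10 pairs of H2-Aa sets had Pearson correlations of log2 level of 0.72 to 0.97, and the 3 pairs of C1qb sets of 0.84 to 0.93. These include pairs on different chip types. Cd74 correlated with the H2-Aa sets at 0.81 to 0.98 but with the C1qb sets at 0.14 to 0.24, and H2-Aa with C1qb at 0.13 to 0.62. All points share the arrays' samples and scaling, and the tumour lies far from the rest, so these values are a description.

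The genes on the same chip with levels most like Cd74 were H2-Aa (0.96 and 0.94 on its chip B sets), Anxa1 (0.96), which encodes annexin A1, Lcn2 (0.90), which encodes lipocalin 2, and Pdgfrb (0.90), a growth factor receptor of mesenchymal cells. Without the tumour these were 0.91, 0.96, 0.90, 0.80 and 0.75. Most like H2-Aa AF027865_2_s_at on chip A were Cd63 (0.96), a lysosomal tetraspanin, Ptprcap (0.96), which binds the leukocyte phosphatase CD45, Ctsc (0.96), a lysosomal protease, Ahnak (0.93) and Slc9a3r1 (0.91). Without the tumour these were 0.90, 0.91, 0.88, 0.80 and 0.80, and Ahnak and Slc9a3r1 then ranked 40 and 41. Most like H2-Eb1 x00958_s_at were both H2-Aa sets of that chip (0.94 and 0.88), Cfp (0.89), which encodes properdin, H2-Ab1 (0.87) and Cd74 (0.83). Leaving out the tumour gave 0.91, 0.82, 0.82, 0.84 and 0.71, the last at rank 43. For C1qb m22531_f_at they were Ctss (0.97), Lyz2 (0.93), Cd68 (0.92), Tmem176a (0.92) and Prss29 (0.92), with 0.93 to 0.97 when the tumour was left out.

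Of the wider class II pathway, 13 of 19 listed genes were on the chips and 8 were tested, with 7 lower and 1 higher in transgenic ovaries and a median log2 difference of -0.97, against 0.0001 over all probe sets. After adjustment limma called 0 of the 8, and 3 were lower at an unadjusted p under 0.05: Cd74, H2-Aa and H2-Ea. As 3 of the 8 are the genes described above, the list is no independent set. H2-Ab1, the beta chain that pairs with H2-Aa, read 1076, 5179, 936 and 787 units in wild types (CF-1 at 2 and 5 months, hybrid at 2 and 5 months). It read 135, -179, 563 and 1360 units in their partners, with the tumour and the CF-1 cystic ovary under the floor of 290.7 units (log2 difference -1.50, limma adjusted p = 0.533). H2-Ea, the I-E alpha chain, had a log2 difference of -0.87 on u13648_s_at (limma adjusted p = 0.357). Its size depends on the floor of 183.8 units, as both cystic ovaries and the tumour stood under it. This set read 1850 units in the hCG-treated ovary, where the other 8 arrays ran from 8.53 to 575 units. M12818_rc_at and a chip B set of H2-Ea were detected on none of the 9 arrays, and read 12.5 and 457 units after hCG.

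The proteases that trim the invariant chain and antigens did not move as one. Lgmn (legumain) had a log2 difference of -1.07 with genotype, Ctss (cathepsin S) of -0.001 and Ctsl (cathepsin L) of 0.03. Ctss read 7570 units in the hybrid luteoma and 9627 units in the CF-1 wild type at 5 months, the arrays on which C1qb was highest, and 1373 to 3371 units on the other 7. Ciita, the class II co-activator, and the peptide-loading genes H2-DMa, H2-Oa and H2-Ob stood under the detection limit on all 9 arrays.

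Lists next to the class II pathway had smaller medians. Class I presentation gave a median log2 difference of -0.03 over 13 tested genes (5 higher, 8 lower), interferon gamma response of -0.12 over 9 (3 higher, 6 lower) and complement of -0.16 over 10 (4 higher, 6 lower). In these lists, with each gene read on its brightest set, limma called 0 after adjustment. At an unadjusted p under 0.05 1 gene was lower, Serping1 (C1 inhibitor, -0.52). The complement gene Cfb had 0.04 on its brightest set but -0.60 on a chip B set (limma unadjusted p = 0.00916). That chip B set reached the detection limit on 3 of 9 arrays. Outside these lists, luteal and theca genes (6 tested) had a median of -0.78 with genotype and oocyte genes (4 tested) one of -0.60. In the tumour pair the class II median was -2.45 with all 8 genes lower, where over all probe sets the median was 0.01 and 2986 of 6408 were lower. Leukocyte and complement genes were also lower there: general leukocyte genes had a median of -1.10 (9 of 9 lower), macrophage genes -0.86 (12 of 12), B cell genes -0.67 (4 of 4) and complement genes -0.67 (10 of 10). The median was -0.27 for class I (12 of 13 lower) and -0.28 for interferon gamma response (5 of 9 lower). The CF-1 wild type of this pair had the highest macrophage and general leukocyte sums of the 9 arrays (64611 and 11256 units). The tumour read 38627 and 7011 units, against at most 27554 and 6222 units in the other wild types. Its B cell sum was the lowest (3829 units), and its complement sum (20927 units) lay inside the wild-type range. In the hybrid wild type of 5 months these 12 macrophage and 9 leukocyte genes were also all lower than in that CF-1 wild type. Luteal and theca genes had a median of -2.77 in the tumour pair (6 of 6 lower). Their sum was lowest in the tumour (25983 units, against 50188 to 131081 units elsewhere). Granulosa genes had a median of 1.31, and their sum was highest there (73004 units). The part of these genes and of the leukocytes in the class II values was not tested.

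**Figure D4:**
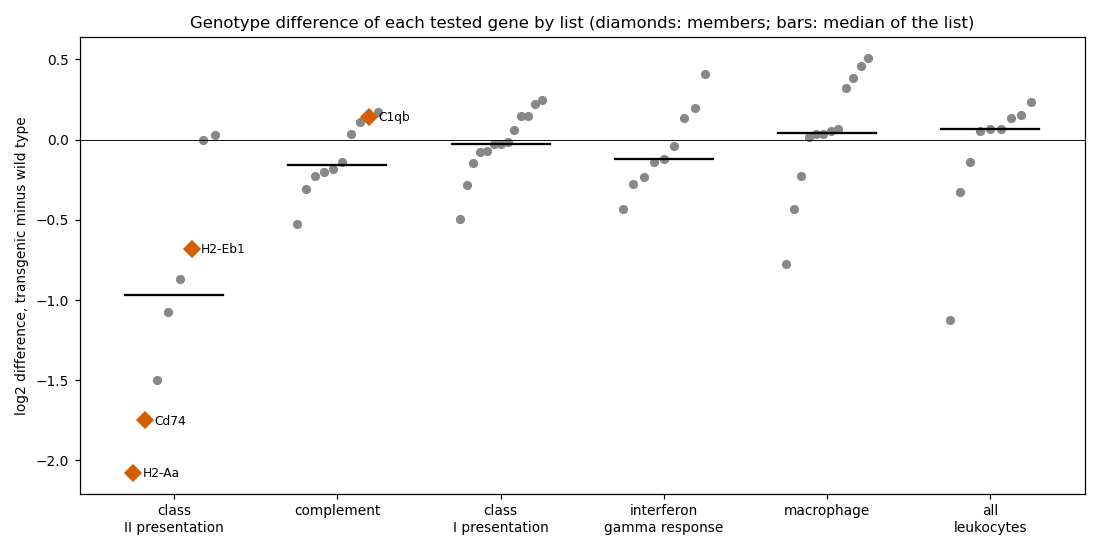
Genotype log2 difference (transgenic minus wild type) of every tested gene in 6 gene lists, 1 point a gene, with bars at the list medians and diamonds for Cd74, H2-Aa, H2-Eb1 (x00958_s_at) and C1qb (m22531_f_at). The class II median is -0.97, and the other 5 medians shown lie between -0.16 and 0.07. Luteal and theca genes (-0.78) and oocyte genes (-0.60) are not plotted.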

How the data were processed

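The authors deposited 1 linear intensity per probe set and array. The sources used here do not say how they computed it, and 13.6% to 30.1% of values on an array are below 0. Arrays of a chip type were brought to the same trimmed mean (2nd to 98th percentile). As deposited, that mean was 907 to 1756 units (chip A) and 542 to 921 units (chip B). Values were raised to a floor (183.8 units on chip A, 290.7 on chip B) and taken to log2. Tested were probe sets at or above 2 floors on at least 2 of 9 arrays, 4122 on chip A and 2286 on chip B. On each chip 76 control or shared probe sets were left out. Symbols came from the platform annotation, updated by Entrez number (7544 of 7561 matched). The fits used limma 3.58.1 in R 4.3.3 with the Benjamini-Hochberg method at 0.05, checked on simulated data. Named genes were the 4 genes, the 5 probe sets most correlated with the brightest set of each, the extremes of each list, and any gene of the class II, complement and macrophage lists; a few leukocyte markers were named after their values were seen. The genes and lists were chosen with earlier results of these data known. Alternatives changed the floor, filter, scaling, variance model, arrays and terms.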

Additional observations from a re-analysis of the deposited data

Results flagged for a closer look

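Each of the 11 probe sets was examined for an array far from the others of its genotype. This was done among 4 wild-type and among 4 untreated transgenic ovaries, 22 groups in all. The measure is the gap to the nearest other array as a share of the group's range, on scaled intensities before log2. Its critical value at the 95% level was passed in 7 groups. Arrays of a group differ in strain and age and are shared between probe sets, so how many chance would mark cannot be given. In wild types the CF-1 ovary of 5 months stood above the other 3, at 0.8295 for Cd74, 0.8917 for H2-Aa k01923_f_at, 0.876 for its V00832 set, 0.8346 for its chip B set of K01923 and 0.9229 for C1qb X16874_f_at. In transgenic ovaries the hybrid luteoma stood above the others, at 0.8291 for the X00702 set of H2-Eb1 and 0.8672 for the chip B set of M22531 (C1qb). The tumour, lowest for Cd74 and H2-Aa, passed it on none of them.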

How the results depend on the processing

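With 1 array a condition, Cd74 and H2-Aa genotype differences kept their sign under every alternative run. The labels give no replicate numbers to block on. With each transgenic and wild-type pair of a strain and age as a block, limma called 0 for genotype (623 at an unadjusted p under 0.05), with the same log2 difference of -1.75 for Cd74 (limma adjusted p = 0.394). Leaving out an array gave log2 genotype differences of -2.18 to -1.14 for Cd74 and -2.53 to -1.37 for H2-Aa AF027865_2_s_at. For the other H2-Aa sets these were -1.70 to -1.02 (K01925_f_at), -1.71 to -0.96 (V00832 set), -1.26 to -0.40 (k01923_f_at) and -1.46 to -0.70 (chip B set of K01923). For H2-Eb1 they were -0.89 to -0.25 (x00958_s_at) and 0.39 to 0.69 (X00702 set). For C1qb they were -0.03 to 0.40 (m22531_f_at), -0.107 to 0.315 (chip B set of M22531) and -0.354 to 0.270 (X16874_f_at). The C1qb genotype difference turned to -0.0949 (chip B set of M22531) and -0.0274 (m22531_f_at) with the control profile term, and to -0.0754 (m22531_f_at) on unscaled values, where its interaction with strain was -0.231. Unscaled, H2-Aa AF027865_2_s_at and K01925_f_at passed (log2 -2.30 and -1.67, limma adjusted p = 0.000476 and 0.0140), with a median of all probe sets of -0.16 for genotype, 4 of the 11 at least 3-fold lower in the hybrid pair of 2 months and 0 with hCG. C1qb X16874_f_at passed for age without the hybrid wild type of 5 months (1.62, limma adjusted p = 0.0313). Limma called 254 probe sets in that fit, in which age and the control profile cannot be told apart. Limma counts were 0 for genotype, but 8 with trended robust variances, 33 unscaled and 0 to 7 leaving out an array. For strain (2) they were 0 with the floor doubled or the profile term, 6 with no filter, 1 with the floor halved, the floor at 20 units, hCG included, robust variances or unscaled, and 0 to 1 leaving out an array. For age (1) they were 3 with no filter, 18 unscaled, 0 with the floor doubled, hCG included, the profile term or robust variances, and 0 to 254 leaving out an array. Interaction counts (0) were 1 with no filter for genotype by age. For genotype by strain they were 1 with the floor at 20 units, 2 with no filter, 6 unscaled and 0 to 5 leaving out an array. For age by strain they were 3 with no filter and 3 unscaled.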
